A study of Bos taurus with 6 samples.

Results

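LPL, FABP3, UCP3 and PDK4 are 4 genes linked to the supply of circulating fat and its use as fuel in the muscle fibre. The longissimus, a back muscle, was compared between adult and embryonic Qinchuan cattle, a Chinese yellow breed. The adult group holds 3 animals sampled 24 months after birth and the embryonic group holds 3 animals sampled 90 days after fertilization. All 6 samples came from a slaughterhouse, and the labels name no treatment and no difference in genotype or feed between the groups. The genes were chosen by their measured FPKM in these stages, so their direction and the size of their difference are a description and not a test. FPKM counts the fragments of a transcript relative to its exon length and to the size of the library, and it sets genes of different lengths on 1 scale. The table holds 5288 transcripts that the authors called different between the stages, under 5206 gene symbols, and each of the 4 genes has 1 of these rows. There is 1 FPKM value per stage for each transcript, which is the authors' value for the stage and not a mean computed here. No spread between animals and no test can therefore be given for any value below, and the number of fragments behind each value is unknown. In bulk tissue, fewer cells of a type and less RNA per cell cannot be told apart.

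Muscle takes up fatty acids that lipoprotein lipase frees from the triglyceride of circulating lipoproteins at the capillary wall. Inside the fibre, a small cytosolic binding protein carries them towards the mitochondria, where beta-oxidation turns them into acetyl-CoA. Pyruvate dehydrogenase makes acetyl-CoA from carbohydrate, and its kinases switch it off by phosphorylation when fat is the fuel, so that pyruvate is spared. In rodents and humans, the 4 genes are known targets of PPAR receptors, which are activated by fatty acids.

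All 4 genes were higher in adult muscle, LPL by the smallest ratio and UCP3 by the largest. LPL, the lipoprotein lipase, had an FPKM of 122 in adult muscle and 1.27 in embryonic muscle, a 95.5-fold difference. FABP3, the fatty acid binding protein of heart and skeletal muscle, had 753 in adult muscle and 2.46 in embryonic muscle, a 306-fold difference. UCP3, a mitochondrial inner membrane carrier found mainly in skeletal muscle and related to the uncoupling protein of brown fat, had 418 in adult muscle and 0.127 in embryonic muscle, a 3281-fold difference. PDK4, a pyruvate dehydrogenase kinase, had 1414 in adult muscle and 0.925 in embryonic muscle, a 1529-fold difference. On the log2 scale the differences, adult over embryonic FPKM, were 6.58 for LPL, 8.26 for FABP3, 10.58 for PDK4 and 11.68 for UCP3. The embryonic values of UCP3 and PDK4 lie below 1 FPKM, so both ratios have a very small denominator. With a pseudocount of 1 FPKM the log2 differences were 8.54 for UCP3, 9.52 for PDK4 and 5.75 for LPL, and that of FABP3 moved by less than 1.5 times.

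**Figure D1:**
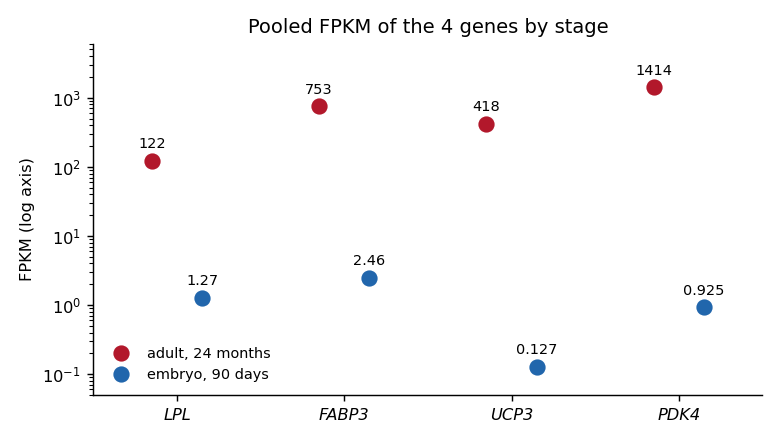
Pooled FPKM of LPL, FABP3, UCP3 and PDK4 on a log axis, with 1 point per stage, adult at left and embryo at right, and no error bars since each stage has 1 value. Adult values lie between 122 and 1414 FPKM and embryonic values between 0.127 and 2.46 FPKM.

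The order of the genes differed between the stages. By adult FPKM it ran PDK4, FABP3, UCP3 and LPL, with the highest 11.6 times the lowest. In the embryo it ran FABP3, LPL, PDK4 and UCP3, with the highest 19.3 times the lowest. Whether neighbours in these orders differ by more than animals do cannot be said without replicates. Among the 5288 transcripts, PDK4 ranked 62 by adult FPKM, FABP3 133, UCP3 219 and LPL 505. By embryonic FPKM, FABP3 ranked 2132, LPL 3187, PDK4 3663 and UCP3 5221. The FPKM of the 4 genes summed to 2706 in adult muscle and 4.78 in embryonic muscle, which is 0.401% of the FPKM total of the table in the adult and 0.00676% in the embryo.

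These counts stand against a table that leans strongly to the adult. All 4 genes were higher in adult muscle, as were 90.3% of all 5288 transcripts (4776 higher and 512 lower). All 4 were at least 16-fold higher, as were 20.1% of the 5248 transcripts above 0 in both stages. The genes were chosen on this same difference, and nothing is read from these counts. The median log2 fold change over the 4 genes was 9.42, beside 2.71 over all transcripts above 0 in both stages. Ranked by log2 fold change, UCP3 stood at position 3, PDK4 at 6, FABP3 at 21 and LPL at 88.

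Every fold change depends on how the stages are scaled to each other, and 4 other scalings were tried. Setting the same FPKM total in both stages lowered each log2 fold change by 3.25, centring on all transcripts by 2.71, centring on the cytosolic ribosomal proteins by 2.31 and centring on a housekeeping list by 3.73. A transcript with a log2 fold change above 3.73 therefore stays higher in adult muscle under the 4 scalings, and one below 2.31 turns lower under all of them. LPL, FABP3, UCP3 and PDK4 stayed higher under each scaling. Their smallest values, reached with the housekeeping list, were 2.84 for LPL, 4.53 for FABP3, 6.85 for PDK4 and 7.95 for UCP3. All 19 listed housekeeping genes of 30, and all 72 listed transcripts of 68 ribosomal protein genes, had a higher FPKM in the adult, so each reference list itself leans to the adult before it is centred. Only called transcripts could enter these shifts. The authors report that a smaller share of mapped reads fell in exons, and a larger share in introns, in embryonic than in adult samples. They also report a lower mapping ratio for the embryonic samples. The part of these library differences in the lean to the adult was not tested.

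**Figure D2:**
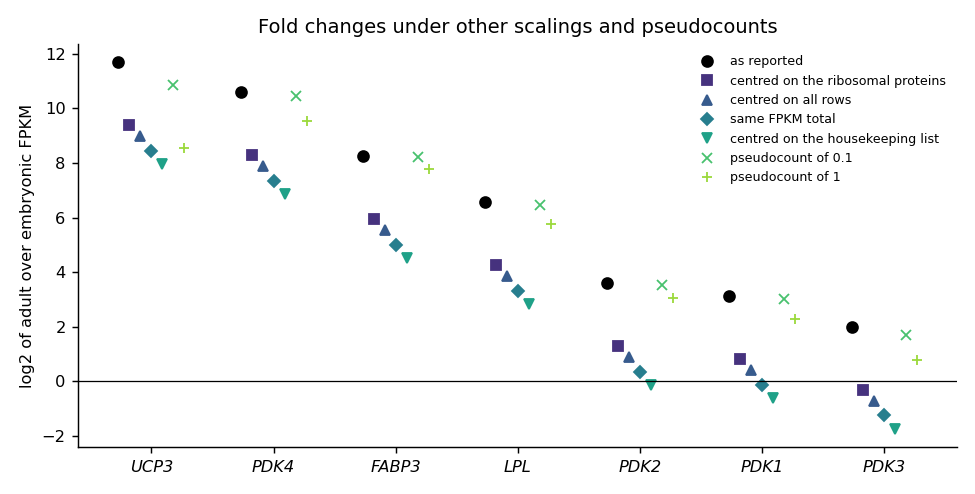
Log2 of adult over embryonic FPKM for UCP3, PDK4, FABP3 and LPL and for the other pyruvate dehydrogenase kinases PDK2, PDK1 and PDK3, with 1 symbol per scaling or pseudocount. UCP3, PDK4, FABP3 and LPL stay above 0 throughout, and PDK2, PDK1 and PDK3 cross 0 under 1 to 4 scalings.

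The deposited coordinates, on the bosTau7 genome, place the genes on separate chromosomes. The locus of LPL is chr8:67478814-67511227 and that of FABP3 is chr2:122712860-122783830. UCP3 lies at chr15:54213349-54224204 and PDK4 at chr4:12754201-12767677. Each row carries the class code for a full match of the assembled transcript to a reference transcript, as do all 5288 rows. The locus of FABP3 spans 70971 bases, beside 32414 for LPL, 13477 for PDK4 and 10856 for UCP3. In the RefSeq gene order of another assembly, ARS-UCD2.0, FABP3 lies between SERINC2 and ZCCHC17, and UCP3 lies between UCP2 and C2CD3. UCP2, ZCCHC17 and C2CD3 have no row in the table. The FABP3 locus is far longer than the RefSeq gene on that assembly, and whether it takes in a neighbouring gene was not tested. The libraries kept the strand, but whether the quantification used it is not given in the sources used here, so reads of overlapping genes may have entered a value.

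The labels in the table tie the genes together only in part. Both LPL and FABP3 carry the KEGG label of the PPAR signaling pathway, and UCP3 and PDK4 carry no KEGG label. Both FABP3 and UCP3 carry the GO term of the mitochondrion, which 735 transcripts of the table share, and the term of transport (294 transcripts). LPL and UCP3 share the term of the membrane (858 transcripts), and LPL and FABP3 share protein binding (2463 transcripts). No GO term is held by LPL, FABP3 and UCP3 together. The GO label of PDK4 was not used here.

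LPL was described beside the genes that act on lipoproteins with it. Of 23 symbols of lipoprotein lipolysis and lipoprotein receptors, 4 are listed, with a median log2 fold change of 5.64, or 5.58 without LPL. ANGPTL4, a secreted inhibitor of lipoprotein lipase, had an FPKM of 36.1 in adult muscle and 0.756 in embryonic muscle (log2 fold change 5.58, higher under the 4 scalings). The FPKM of LPL was 3.37 times that of ANGPTL4 in the adult and 1.69 times in the embryo. VLDLR, a receptor that binds triglyceride-rich lipoproteins beside the lipase, had 113 in adult muscle and 2.16 in embryonic muscle (5.70, higher under the 4 scalings). LMF1, a chaperone that the lipase needs to fold, had 5.34 in adult and 1.28 in embryonic muscle, a log2 fold change of 2.06 that turns negative under each of the 4 scalings. GPIHBP1, which anchors the lipase to the capillary wall, and the related lipases LIPC and LIPG have no row. A missing row says only that the symbol is not among the called transcripts.

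LPL is also made by adipocytes and macrophages, so the markers of these cells are given beside it. Of 16 symbols searched as adipocyte markers, 3 are listed. Each of the 3 had more FPKM in the adult, as did 90.3% of all transcripts, at a median log2 fold change of 4.66. Their FPKM summed to 97.5 in adult and 6.49 in embryonic muscle. ADIPOQ, the adipocyte hormone adiponectin, had an FPKM of 6.75 in adult muscle and 0.252 in embryonic muscle (log2 fold change 4.74, higher under the 4 scalings). The FPKM of LPL was 18.0 times that of ADIPOQ in the adult and 5.05 times in the embryo. AQP7, the glycerol channel of fat cells, which muscle also makes, had 72.0 in adult and 2.85 in embryonic muscle (4.66, likewise higher under the 4 scalings). SCD, a fatty acid desaturase, had 18.7 in adult and 3.38 in embryonic muscle, and its log2 fold change of 2.47 turns negative under every scaling except that on ribosomal proteins. The defining markers FABP4, PLIN1, LEP and CIDEC have no row. Of 14 macrophage markers, 2 are listed, with a summed FPKM of 16.02 in the adult and 6.46 in the embryo. C1QA, a complement subunit, and LYZ, lysozyme, had log2 fold changes of 1.31 and 1.32, which turn negative under each scaling. The part of these cells in the LPL difference was not tested.

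Capillary cells were represented by 7 of 16 endothelial markers, and the other 9 have no row. Of the 7, 6 were higher in adult muscle and 1 lower, beside 90.3% higher over all transcripts. Their summed FPKM was 57.7 in adult and 25.6 in embryonic muscle, and the median log2 fold change of 2.05 turns negative under each of the 4 scalings. VWF, the von Willebrand factor, had an FPKM of 13.3 in adult muscle and 3.22 in embryonic muscle, a log2 fold change of 2.05 that also turns negative under each scaling. ERG, an endothelial transcription factor, had 3.97 in adult and 0.430 in embryonic muscle, and its log2 fold change of 3.20 turns negative with the FPKM total and with the housekeeping list. PLVAP, a protein of endothelial pores, was lower, with 1.20 in adult muscle and 8.95 in embryonic muscle (-2.90). No listed endothelial marker was as much as 16-fold higher, beside 20.1% of all transcripts above 0 in both stages. With 7 markers listed, nothing is read from these counts.

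FABP3 stood far above its relatives in the adult. FABP5, the epidermal form, had an FPKM of 23.2 in adult muscle and 0.945 in embryonic muscle (log2 fold change 4.61, higher under the 4 scalings). PMP2, the myelin form made by Schwann cells, had 1.47 in adult and 0.122 in embryonic muscle, a log2 fold change of 3.59 that turns negative with the housekeeping list. The other 7 of the 10 symbols searched for this family have no row. FABP3 made up 96.8% of the summed FPKM of the listed family in the adult and 69.7% in the embryo. It was 32.5 times FABP5 in the adult and 2.60 times in the embryo. A share within a stage does not depend on the scaling between stages.

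The other genes of fatty acid uptake, binding and activation were mostly higher as well, by less. Of 28 symbols, 13 are listed with 14 transcripts. Adult FPKM exceeded embryonic FPKM in 13 of these and was below it in 1, or in 12 and 1 without FABP3. This is close to the 90.3% higher over all transcripts. The median log2 fold change was 3.796, or 3.74 without FABP3. ACSL1, which activates long-chain fatty acids with coenzyme A, had an FPKM of 171 in adult muscle and 2.76 in embryonic muscle (5.95, higher under the 4 scalings). DBI, the binding protein for acyl-CoA, had 182 in adult and 7.90 in embryonic muscle (4.53, higher under the 4 scalings). GOT2, a mitochondrial aminotransferase that has also been described as a fatty acid binding protein of the plasma membrane, had a log2 fold change of 6.56 that also stays positive under the 4 scalings. SLC27A5, the bile acid and fatty acid ligase known from liver, was lower, with 0.386 in adult muscle and 0.835 in embryonic muscle (-1.11). CD36, a fatty acid receptor of the plasma membrane, has no row. Of the 14 transcripts, 8 stay higher in adult muscle under the 4 scalings.

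**Figure D3:**
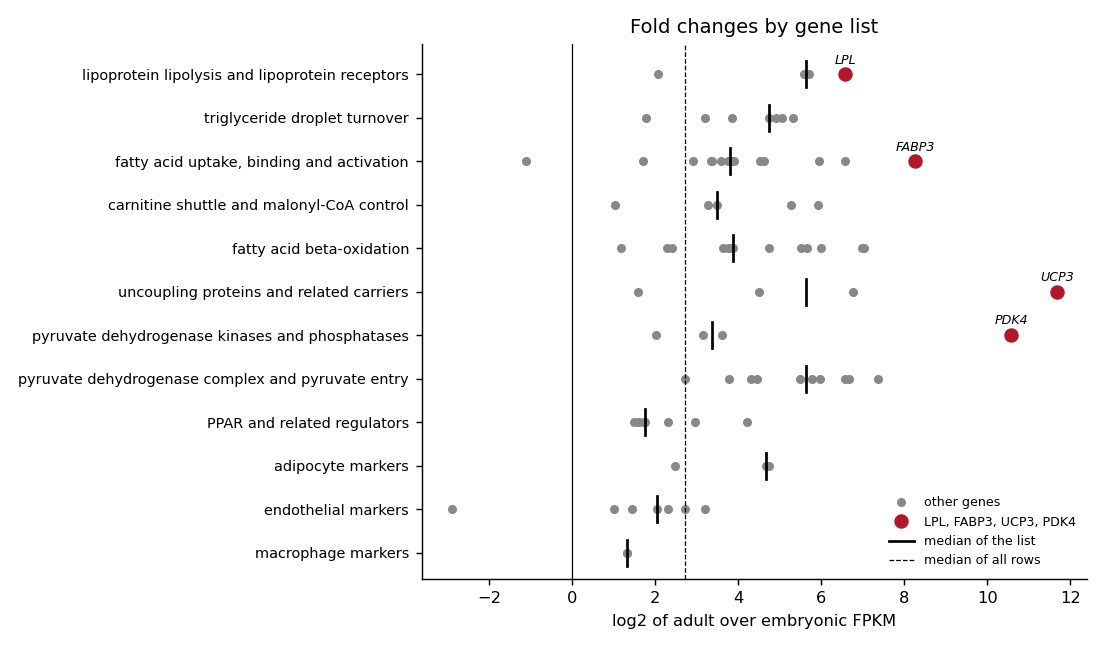
Log2 of adult over embryonic FPKM for each transcript of 12 gene lists, with LPL, FABP3, UCP3 and PDK4 in red, a black bar at the median of each list and a dashed line at 2.71, the median of all transcripts. Red points lie at the right end of the 4 plotted lists that hold them, and the medians of the PPAR regulators, the endothelial and the macrophage markers lie left of the dashed line.

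Genes of stored fat and of its entry into mitochondria were counted against the 90.3% of all transcripts that were higher in the adult, and 18, 5 and 6 symbols of the 3 lists below have no row. All 7 listed transcripts of triglyceride droplet turnover, out of 25 symbols, had more FPKM in the adult, at a median log2 fold change of 4.75, and 5 of them stay higher under the 4 scalings. These 5 include DGAT2, which makes triglyceride (5.31, or 1.90 with a pseudocount of 1 at its embryonic FPKM of 0.0756), PLIN2 and PLIN5, which coat droplets (5.06 and 4.75), and PNPLA2, the lipase that opens them (4.91). Of 10 symbols of the carnitine shuttle and its control by malonyl-CoA, 5 are listed. Adult FPKM was above embryonic FPKM for all 5, and their median of 3.47 turns negative with the housekeeping list. SLC25A20, which carries acylcarnitine across the inner membrane, had an FPKM of 90.7 in adult muscle and 1.51 in embryonic muscle (5.91). ACACB, which makes the malonyl-CoA that blocks the shuttle, had 30.8 in adult and 0.798 in embryonic muscle (5.27). Both stay higher under the 4 scalings. CPT2, the inner carnitine transferase, had 3.47, which turns negative with the housekeeping list, and CPT1B, the muscle form of the outer enzyme, has no row. All 13 listed transcripts of beta-oxidation, out of 19 symbols, were higher, with a median of 3.88, and 9 of them stay higher under the 4 scalings. The largest were ACADM, the medium-chain dehydrogenase (7.03), and ETFA and ETFDH, which pass its electrons on (6.98 and 5.99). At least 16-fold higher were 6 of the 13, beside 20.1% of all transcripts and 9 of the 19 listed housekeeping genes. The housekeeping median of 3.73 lies close to the 3.88 of beta-oxidation, so nothing particular to beta-oxidation is read from this count.

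UCP3 was the one uncoupling protein with a row, since UCP1 and UCP2 have none. Of 10 symbols of uncoupling proteins and related carriers, 4 are listed. All 4 had more FPKM in the adult, as did 90.3% of all transcripts, at a median log2 fold change of 5.63, or 4.50 without UCP3. The ADP/ATP exchangers belong to the same wider family of mitochondrial carriers. SLC25A4, the exchanger of heart and muscle, had an FPKM of 4056 in adult muscle and 37.4 in embryonic muscle (log2 fold change 6.76, higher under the 4 scalings). SLC25A5, the exchanger of dividing cells, had 3.88 in adult and 1.30 in embryonic muscle, a log2 fold change of 1.57 that turns negative under each scaling. SLC25A30, a carrier of the uncoupling protein branch, had 39.4 in adult and 1.74 in embryonic muscle (4.50, higher under the 4 scalings). UCP3 was 0.103 times SLC25A4 in the adult and 0.00341 times in the embryo. It made up 9.33% of the summed FPKM of UCP3, SLC25A4 and SLC25A5 in the adult and 0.328% in the embryo, a sum that leaves out SLC25A30.

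PDK4 was 1 of 4 pyruvate dehydrogenase kinases. All 4 are listed as higher in adult muscle, as are 90.3% of all transcripts, although the direction of the other 3 depends on the scaling. PDK2 had an FPKM of 23.5 in adult muscle and 1.94 in embryonic muscle, and its log2 fold change of 3.60 turns negative with the housekeeping list. PDK1 had 8.89 in adult and 1.01 in embryonic muscle, and its log2 fold change of 3.14 turns negative with the FPKM total and the housekeeping list. For PDK3, with 1.22 in adult and 0.304 in embryonic muscle, the log2 fold change of 2.01 turns negative under each scaling. PDK4 was 60.2 times the next kinase, PDK2, in the adult, and 0.478 times PDK2 in the embryo. Its share of the summed FPKM of the kinases was 97.7% in the adult and 22.2% in the embryo. By these single values the kinase family had a different leading member in each stage, PDK4 in the adult and PDK2 in the embryo. The embryonic values reach at most 1.94 FPKM and have no replicates, so the order and the shares in the embryo are uncertain. Over the 4 kinases the median log2 fold change was 3.37, or 3.14 without PDK4, and both turn negative with the housekeeping list, the second also with the FPKM total. The phosphatases PDP1 and PDP2 and their regulator PDPR, which act against the kinases, have no row.

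**Figure D4:**
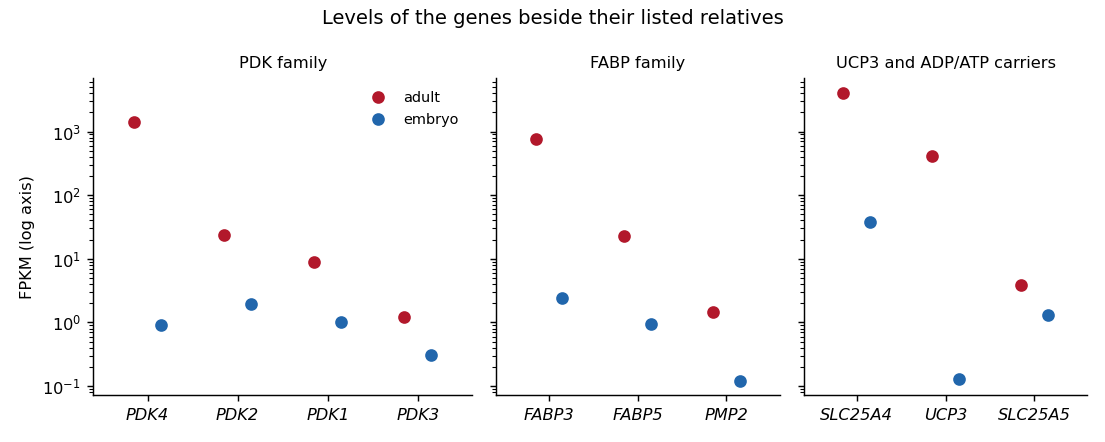
FPKM on a log axis of the pyruvate dehydrogenase kinases, the listed fatty acid binding proteins, and UCP3 with the ADP/ATP carriers, adult in red at left of each pair and embryo in blue at right. PDK4 at 1414 FPKM and FABP3 at 753 FPKM lead their families in the adult, and in the embryo PDK4 at 0.925 FPKM lies below PDK2 at 1.94 FPKM.

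The enzyme that PDK4 inhibits was higher in adult muscle too. Of 13 symbols of the pyruvate dehydrogenase complex and pyruvate entry, 10 are listed. Each of the 10 had more FPKM in the adult, as did 90.3% of all transcripts. The median log2 fold change was 5.63, and 9 of the 10 stay higher under the 4 scalings. PDHA1, the subunit that the kinases phosphorylate, had an FPKM of 245 in adult muscle and 2.40 in embryonic muscle (6.67). PDHB, its partner subunit, had 6.57, PDHX, which anchors a further subunit, had 5.96, and MPC2, a subunit of the mitochondrial pyruvate carrier, had 5.78. PDK4 was 5.77 times PDHA1 in the adult and 0.385 times in the embryo. LDHA, which turns pyruvate to lactate, had a log2 fold change of 7.36. LDHB, the form of oxidative tissues, had 2.72, which turns negative with the FPKM total and with the housekeeping list, and it was chosen after its value was seen. PDHA1, PDHB, PDHX, MPC2 and LDHA stay higher under the 4 scalings.

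Nuclear receptors, their cofactors and related regulators were counted as a further list. Of 25 symbols of PPAR and related regulators, 8 are listed and 17 have no row. All 8 had more FPKM in the adult, as did 90.3% of all transcripts. Their median log2 fold change of 1.74 lies below that of all transcripts (2.71) and turns negative under each scaling. PPARGC1A, a coactivator of mitochondrial genes, had an FPKM of 10.8 in adult muscle and 0.583 in embryonic muscle (4.21), and it alone of the 8 stays higher under the 4 scalings. TFEB, a lysosomal regulator, had 2.95, which turns negative with the FPKM total and the housekeeping list. RXRB and RXRG, the partner receptors of PPAR, had 1.73 and 1.49, which turn negative under each scaling. The receptors PPARA, PPARD and PPARG have no row. RXRG is named here because of its role and was chosen after its value was seen.

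Genes known from human or mouse as PPAR targets were also counted. Of 28 symbols, 18 are listed and 10 have no row. Each of the 18 had more FPKM in the adult, as did 90.3% of all transcripts, and the median log2 fold change was 5.70, or 5.55 over the 14 other than LPL, FABP3, UCP3 and PDK4. At least 16-fold higher were 11 of these 14, beside 20.1% of all transcripts and 9 of the 19 listed housekeeping genes. Under the 4 scalings, 13 of the 14 stay higher. Apart from TXNIP, these 14 also stand in the lists of fat metabolism above, so their counts are not separate from those. The list was chosen with earlier results of these data known. TXNIP, which restrains glucose uptake, had an FPKM of 965 in adult muscle and 17.8 in embryonic muscle (5.76). The KEGG label of PPAR signaling, which was not chosen here, is carried by 22 transcripts with a median of 3.66. Of these, the 20 transcripts other than LPL and FABP3 had 18 higher and 2 lower, beside 90.3% higher over all transcripts. Their median of 3.41 turns negative with the housekeeping list. At least 16-fold higher were 6 of these 20. APOA1, the main protein of high-density lipoprotein, was lower (-1.80), as was SLC27A5.

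Markers of muscle fibres were described as well. They are no check of the tissue label, since only transcripts called different between the stages have a row. Of 11 slow fibre markers, 7 are listed, and of 13 fast fibre markers, 6 are listed, and all of them were higher in adult muscle under the 4 scalings. As deposited, 90.3% of all transcripts were higher. The summed FPKM of the slow markers was 41185 in adult and 722 in embryonic muscle, and that of the fast markers was 92119 in adult and 3670 in embryonic muscle. MB, the oxygen store myoglobin, had a log2 fold change of 9.42, MYH7, the slow myosin heavy chain, had 7.08, and CASQ1, the calcium store protein of fast fibres, had 6.87. The medians were 5.27 for the slow and 5.51 for the fast list. The log2 fold changes of LPL, FABP3, UCP3 and PDK4, which were chosen on this difference, lie above both medians. Single markers overlap with them. MB lies above FABP3 (8.26) and LPL (6.58), and MYH7 and CASQ1 lie above LPL. No marker above 0 in both stages reached PDK4 (10.58) or UCP3 (11.68). The part of a larger share of mature fibres in these differences was not tested.

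Some transcripts had almost the same pair of levels as the 4 genes. Likeness was measured as the distance in log2 adult and log2 embryonic FPKM, over the 2 stage values alone, and it says nothing of shared function or control. Nearest to LPL were SLC25A12, a mitochondrial aspartate and glutamate carrier (distance 0.0814), CDC34, a ubiquitin-conjugating enzyme (0.195), and CLIC5, a chloride channel protein (0.210). Nearest to FABP3 were PHYH, which begins the breakdown of phytanic acid (0.292), GPD1, the cytosolic glycerol phosphate dehydrogenase (0.550), and NDUFV2, a subunit of respiratory complex I (0.869). PDK4 was closest to EEF1A2, a muscle elongation factor (0.623), TMOD4, a thin filament cap (0.734), and ANKRD1, a titin-bound ankyrin repeat protein (0.760). UCP3 had no neighbour within 1 unit, and its nearest were FBP2, the muscle fructose-bisphosphatase (1.37), C14H8orf22 (1.5001) and PHKA1, a subunit of phosphorylase kinase (1.84). All 12 of these genes stay higher in adult muscle under the 4 scalings.

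**Figure D5:**
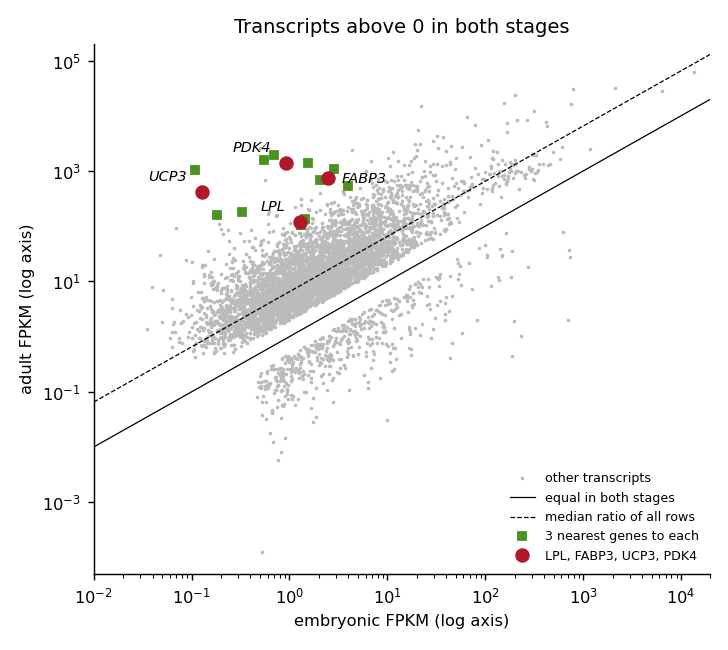
Adult against embryonic FPKM on log axes for the 5248 transcripts above 0 in both stages, in grey, with LPL, FABP3, UCP3 and PDK4 in red and the 3 nearest genes to each in green. The solid line marks equal values and the dashed line the median log2 fold change of 2.71, and the red points lie above both.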

How the data were processed

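Longissimus muscle RNA of 3 adult and 3 embryonic Qinchuan cattle was depleted of ribosomal RNA, per the protocol in the labels (another label names polyA RNA), and sequenced in paired ends. Adapters were removed by the authors with Trim Galore, TopHat2 2.0.14 placed the reads on bosTau7, and Cufflinks assembled and quantified transcripts. The authors deposited FPKM values, 1 per stage for each transcript called, all of which have a p-value below 0.05 and stages at least 2-fold apart. Their own fold changes, p-values, q-values and GO enrichment tables were not used. Depth per value is unknown. The stage of each FPKM column was read from the study's own naming.

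Log2 fold changes were computed here as adult over embryonic FPKM with no pseudocount, and no test was run. The computation was tested on simulated data. Alternatives were pseudocounts of 1 and 0.1, 4 scalings, an FPKM above 2 in the higher stage, 1 row per gene and a 16-fold minimum. The genes and lists were chosen with earlier results of these data known. Named genes are the 4 members, their listed relatives and direct partners, up to 6 of the largest rows of each list whose higher stage exceeds an FPKM of 2, rows lower in the adult in a list that is mostly higher, and the 3 nearest genes to each member. TXNIP, LDHB, LYZ, RXRG and the genes beside the members on their chromosomes fall outside this rule and were chosen after their values were seen. The list of lipoprotein lipolysis was shortened by 1 item after its value was seen, since that item is not reported here, so no count by direction is given for it. All 4 symbols matched RefSeq. Promoters and proteins were not analysed here. Python 3.11.15, pandas 2.3.3, numpy 2.4.6 and matplotlib 3.10.9 were used.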

Additional observations from a re-analysis of the deposited data

How the results depend on the processing

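Each log2 fold change of FABP3, LPL, UCP3 and PDK4 kept its direction under every alternative run. With the same FPKM total, values were 5.01 (FABP3), 3.32 (LPL), 8.43 (UCP3) and 7.33 (PDK4). With the housekeeping list they were 4.53, 2.84, 7.95 and 6.85, with the ribosomal proteins 5.95, 4.27, 9.37 and 8.27, and with all transcripts 5.55, 3.87, 8.97 and 7.87, in the same gene order. A pseudocount of 1 gave 5.75 for LPL, 8.54 for UCP3 and 9.52 for PDK4, and one of 0.1 gave 10.84 for UCP3. The share of transcripts with more FPKM in the adult was taken over those still at least 2-fold apart after each scaling. It was 30.5% with the same FPKM total and 17.9% with the housekeeping list. With the ribosomal proteins it was 69.2% and with all transcripts 52.4%, against 90.3% as deposited.

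Some listed transcripts not named elsewhere in the text, such as MED1, THRA and TEK, turned negative under each of the 4 scalings and are left out below. The other named genes and the medians of whole lists turned negative as follows, and the cause was not tested. With the same FPKM total these were the medians of PPAR regulators (-1.51), endothelial markers (-1.20) and macrophage markers (-1.94), and LMF1 (-1.19), SLC25A5 (-1.68), PDK1 (-0.11), PDK3 (-1.25), LDHB (-0.53), TFEB (-0.31), RXRB (-1.52), RXRG (-1.76), SCD (-0.78), VWF (-1.20), ERG (-0.048), C1QA (-1.94) and LYZ (-1.94). With the housekeeping list they were the medians of the carnitine shuttle (-0.26), the kinases and phosphatases (-0.36), PPAR regulators (-1.99), endothelial markers (-1.68), macrophage markers (-2.42) and the KEGG PPAR label (-0.071), and LMF1 (-1.67), PMP2 (-0.15), CPT2 (-0.26), SLC25A5 (-2.16), PDK1 (-0.59), PDK2 (-0.13), PDK3 (-1.73), LDHB (-1.01), TFEB (-0.79), RXRB (-2.002), RXRG (-2.24), SCD (-1.26), VWF (-1.68), ERG (-0.53), C1QA (-2.42) and LYZ (-2.42). With the ribosomal proteins they were the medians of PPAR regulators (-0.56), endothelial markers (-0.26) and macrophage markers (-0.99), and LMF1 (-0.24), SLC25A5 (-0.74), PDK3 (-0.30), RXRB (-0.58), RXRG (-0.82), VWF (-0.26), C1QA (-0.997) and LYZ (-0.99). With all transcripts they were the same 3 medians (-0.96, -0.66 and -1.39), and LMF1 (-0.64), SLC25A5 (-1.13), PDK3 (-0.70), RXRB (-0.97), RXRG (-1.21), SCD (-0.23), VWF (-0.66), C1QA (-1.40) and LYZ (-1.39).

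No paired analysis was possible because the table holds 1 value per stage, and leaving out single animals was not run for the same reason. The depth behind each value is unknown, which leaves the precision of embryonic values below 1 FPKM open to counting error of unknown size.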

Other observations

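The genes beside LPL, FABP3, UCP3 and PDK4 on their chromosomes differed between the stages by less, where both values were above 0. LPL, FABP3, UCP3 and PDK4 were chosen on this same difference, so smaller values in their neighbours follow largely from that choice. Within 300 kb of the 4 loci on bosTau7, the table lists 16 other transcripts, 15 higher in adult muscle and 1 lower, where 90.3% of the whole table was higher, and most of the 15 turn lower under 2 or more of the scalings. These neighbours were chosen after their values were seen. Among those above 0 in both stages, the largest log2 fold change was 4.66 beside FABP3 (a SERINC2 transcript), 2.95 beside LPL, 5.64 beside PDK4 and 5.50 beside UCP3, all below that of the gene itself. PON3, a lactonase, had an FPKM of 17.0 in adult muscle and 0.340 in embryonic muscle, and ASB4, a further neighbour of PDK4, had 13.5 in adult and 0.860 in embryonic muscle (log2 fold change 3.97). Beside UCP3, PGM2L1, which makes glucose bisphosphate, had 5.50 and MRPL48, a mitochondrial ribosomal protein, had 5.01. These 4 neighbours stay higher under the 4 scalings. P4HA3, a collagen prolyl hydroxylase, was the neighbour that was lower, with an FPKM of 2.08 in adult muscle and 4.36 in embryonic muscle (-1.07).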
